A study of Danio rerio with 4 samples.

Results

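Higher sites, as the term is used here, are 930 genomic regions at which acetylation of lysine 27 of histone H3 (H3K27ac) stood higher in both *Epi/FB:dnAP-1* libraries than in both control libraries of nonmyocytes (nonCMs) from regenerating zebrafish hearts. They were drawn from 15296 shared sites, regions called as a peak in all 4 libraries on chromosomes 1 to 25, out of 51678 sites called in any library. The sites were made by merging peaks with an overlap of 1 bp or more, and chromosome 4 from 30 Mb on was left out. In each library the highest maximum signal inside a site was put on a log2 scale, and the median of that library over the shared sites was subtracted. A site counted as higher when both centred *Epi/FB:dnAP-1* values lay above both control values and the group means differed by at least 0.5 (log2). The members were thus chosen by the maximum signal of all 4 libraries. This call took in 6.08% of the shared sites. The mirror rule gave 2385 lower sites (15.6%), and the other 11981 sites met neither rule. Because the rule used the signal of all 4 libraries, levels and differences are descriptions, and no test was made on them.

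H3K27ac is laid down by acetyltransferases such as p300 and CBP on nucleosomes around active enhancers and promoters, and it is taken off by histone deacetylases. AP-1 is a dimer of Fos and Jun family proteins that binds enhancers of genes induced by injury, stress and inflammatory cytokines. In the injured zebrafish heart the epicardium and the fibroblasts derived from it (Epi/FBs) switch on such genes, and they supply matrix and signals to the regenerating muscle. A dominant-negative AP-1 (dnAP-1) blocks this binding.

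The *Epi/FB:dnAP-1* adults carried the driver *TgBAC(tcf21:Cre-ERT2)* and a responder transgene, *ubb:loxp-dsRed-loxp-Flag-dnAP-1*, from which 4-hydroxytamoxifen (4-HT) releases the *ubb*-driven dnAP-1 in cells that express the *tcf21* driver. The methods describe the controls of such lines as double transgenic fish that received ethanol vehicle, whereas the sample labels give the controls a CTRL genotype and, in the title, WT. All hearts underwent apex resection, and nonCMs of the injury area were profiled by CUT&Tag at 7 days, in 2 libraries per group that the study calls biological duplicates. The *Epi/FB:dnAP-1* libraries are also called dnAP-1 libraries below, and sets of 4 values are given in the order dnAP-1 replicate 1, dnAP-1 replicate 2, control replicate 1, control replicate 2. The titles write the residue as H3R27ac. Since dnAP-1 is made only in Epi/FBs while the libraries hold all nonCMs, a shift in the number of cells of a type and a change of acetylation per cell cannot be told apart. The labelled cell type could not be checked against marker genes, as the gene lists below show.

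CUT&Tag directs a transposase to antibody-bound chromatin, so that the signal of a peak is the coverage by the resulting fragments. The lists held 32638 to 38429 peaks over 102 to 118 Mb. Every maximum was a whole multiple of a step of 0.68 in both dnAP-1 lists, 1.26 in control replicate 1 and 1.38 in control replicate 2. The median maximum over the shared sites was 58 and 57 steps with dnAP-1, compared with 26 and 20 for the controls, so the control values moved in coarser increments. The lists give no read totals, and no counting interval was computed. The *Epi/FB:dnAP-1* lists also had a wider spread of log2 maxima over the shared sites (SD 0.94 and 0.94) than the control lists (0.77 and 0.76), and the part of this spread in the counts of higher and lower sites was not tested.

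Higher sites carried strong signal in the dnAP-1 lists, and in the control lists their signal was near the median. Their median maximum was 58.5 and 55.8 with dnAP-1 (replicates 1 and 2) against 31.5 and 24.8 for the controls. Over all shared sites the medians were 39.4, 38.8, 32.8 and 27.6 in the same order. After centring, the typical higher site lay 0.57 and 0.52 above the median of the dnAP-1 lists, and 0.06 and 0.15 below that of the control lists (log2). In *Epi/FB:dnAP-1*, 83.1% and 81.1% of the higher sites exceeded the median of their list, and in the controls 43.9% and 38.5% did. Lower sites were of another kind, with median maxima of 15.0 in both dnAP-1 lists and 21.4 and 19.3 in the control lists, below the medians of all 4 lists.

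**Figure D1:**
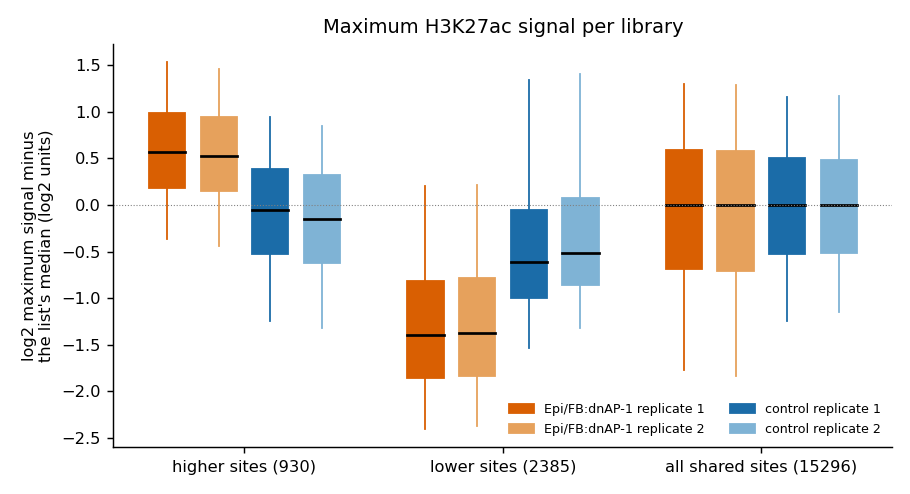
Maximum H3K27ac signal of each library at higher, lower and all shared sites, as log2 maximum minus the median of the list (y axis, log2 units). Lines mark medians, boxes the quartiles and whiskers the 5th to 95th percentile over sites; at the 930 higher sites the medians were 0.57 and 0.52 with dnAP-1 and -0.06 and -0.15 for the controls.

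The differences were moderate. The median difference between groups at the higher sites was 0.62 (log2, quartiles 0.55 and 0.74), which is 1.54-fold, against -0.02 over all shared sites, and 56 sites differed by at least 1. The gap between the lowest *Epi/FB:dnAP-1* value and the highest control value had a median of 0.40. The replicates of a higher site differed by a median of 0.15 with dnAP-1 and 0.27 for the controls. The rule itself asks for a gap between groups, and over all shared sites its median was -0.27. Coverage behind the values ranged widely, and the lowest maximum that each list had at any higher site was 20 and 27 steps in the dnAP-1 lists against 6 and 5 steps in the control lists. With 2 libraries per group an exact permutation test of a single site cannot give a p below 0.33.

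Sites at the edge of the rule looked alike on either side. Just inside, chr11:44896818-44900589 (difference 0.5002) had maxima of 22.4 and 25.2 with dnAP-1 and 15.1 and 11.04 in the controls, and chr3:39186029-39194581 (0.5004) had 71.4, 64.6, 35.3 and 38.6. The third, chr11:2644883-2652713 (0.5005), was among the strongest higher sites, with 110.8, 107.4, 58.0 and 60.7. Just outside, chr12:30787123-30791161 (0.4998) had 70.7, 74.8, 45.4 and 34.5. The next ones out, chr5:17337933-17341366 (0.4995) and chr11:42492637-42497612 (0.4994), had 23.1, 25.2, 13.9 and 12.4, and 39.4, 46.9, 26.5 and 20.7. The groups did not overlap at any of these sites, and the threshold alone parted them. In all, 3769 shared sites (24.6%) had both *Epi/FB:dnAP-1* values above both control values, of which 2839 had a difference under the threshold. Both values were below both control values at 4511 (29.5%), and 46 sites passed the threshold for higher sites but had overlapping groups.

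**Figure D2:**
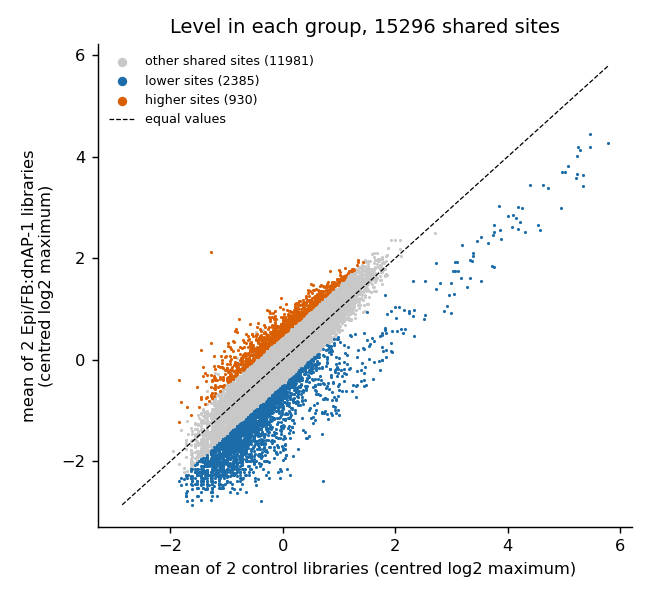
Mean centred log2 maximum of the 2 *Epi/FB:dnAP-1* libraries (y axis) against that of the 2 control libraries (x axis) at 15296 shared sites, with a dashed line of equal values. The higher sites form a narrow band over the main cloud, apart from 1 site far above it, and the lower sites fan out below it at the weak end and form a tail at the strong end.

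How many sites fell on either side depended on how the lists were put on a common scale. Of the sites called higher or lower, 28.1% were higher with each list centred on its median. The share was 48.5% when the 4 lists were quantile normalized and 46.6% when centred on a running median along the level, and with the deposited values left uncentred it was 84.5%. In steps it was 99.6%, with a median over all shared sites of 1.31. The quantile and running-median scalings called 1148 (7.51%) and 1048 (6.85%) of all shared sites higher. Of the 930 higher sites, 731 and 644 still met the rule after these scalings. On total signal as the measure 332 of the 930 met it, where 1252 of all shared sites (8.19%) did. On the mean signal per covered base 256 of the 930 met it, where 1401 of all shared sites (9.16%) did. Leaving out 1 library leaves the rule fewer values to satisfy, and it also widens the shared sites to those called in the remaining 3 lists. Without dnAP-1 replicates 1 and 2 there were 1173 of 15909 (7.37%) and 1433 of 16531 (8.67%) higher sites. Without control replicates 1 and 2 there were 2229 of 17774 (12.5%) and 1503 of 17692 (8.50%). Leaving out control replicate 1 moved the number most, and 784 of the 930 were among the 2229.

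The share of higher sites differed with the level of the site, in a way that depended on how level was measured. Among shared sites ranked by their mean over the 4 libraries, 0.327% were higher in the weakest decile, 2.68% in the next and 8.44% in the seventh, with 7.19% in the strongest. Lower sites ran the other way, from 62.0% in the weakest decile to 1.64% in the ninth, but made up 6.54% of the tenth. The median difference of all shared sites went from -0.65 to 0.16 over the same deciles. This mean includes the dnAP-1 values by which the sites were chosen. Ranked by the control libraries alone, which the rule also used, the higher sites made up 5.42% of the weakest decile and were most frequent in the third (7.85%) and least in the tenth (2.81%).

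**Figure D3:**
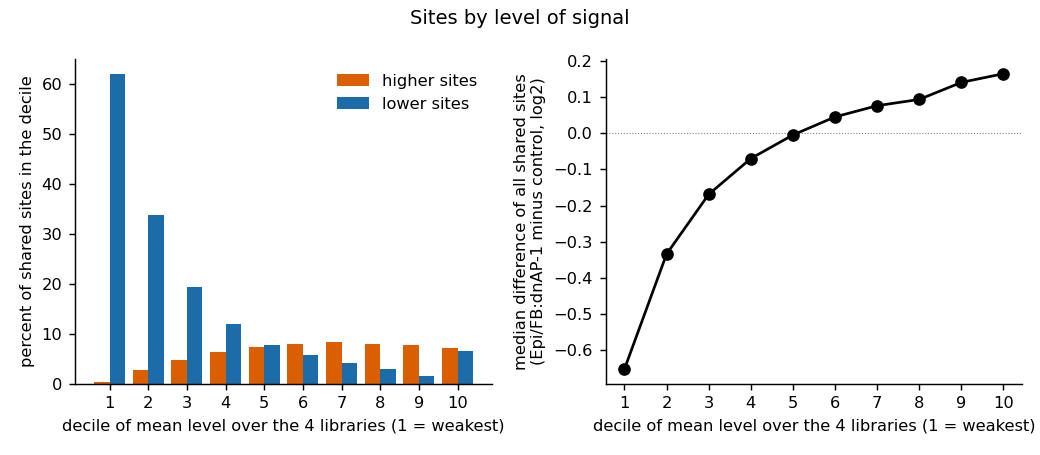
Left, percent of shared sites that were higher (orange) or lower (blue) in each decile of the mean centred log2 maximum over the 4 libraries (x axis, 1 is the weakest); right, median difference of all shared sites in the same deciles (log2). The higher sites make up 0.327% of the weakest decile and 7.19% of the strongest, and the median difference changes from -0.65 to 0.16.

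Total signal, the coverage summed over the peaks of a list in a site, differed less than the maximum at these sites, which were chosen by their maximum. Its median difference at the higher sites was 0.40 (log2), against 0.01 over all shared sites, and 806 of the 930 (86.7%) lay above 0, as did 51.0% of all shared sites. Both *Epi/FB:dnAP-1* totals exceeded both control totals at 583 higher sites (62.7%), with 26.5% over all shared sites. For the mean signal per covered base this was so at 445 (47.8%, against 21.4%), and for the covered length at 187 (20.1%, against 17.0%). The difference of covered length was small, with a median of 0.04. The rule picks sites by the height of the summit, and the breadth of the acetylated stretch differed little. A smaller difference in the other measures is therefore favoured by the choice itself. Sites chosen by total signal instead had a median difference of total signal of 0.64. All these measures come from the same libraries as the rule.

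The higher sites covered 5.87 Mb and ran from 1184 to 36358 bp, with a median width of 5195 bp. All shared sites had a median of 4434 bp and the lower sites 4791 bp. A single peak in every list was found at 597 higher sites (64.2%), fewer than among all shared sites (76.3%) and lower sites (82.0%). At 702 of the higher sites (75.5%) the maxima of all 4 lists lay within 500 bp of each other, as at 74.6% of all shared sites and 49.1% of the lower sites. Summits of the dnAP-1 replicates lay a median of 16 bp apart (35.5 bp over all shared sites), and those of the control replicates 78 bp apart (87 bp). The control summits were placed less closely, in lists that also hold fewer steps, and the part of the step size in this was not tested.

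Sites with the largest differences were the least uniform. Among the 56 with a difference of at least 1, the 4 maxima lay within 500 bp at 20 (35.7%), against 682 of the 874 others (78.0%), and the strongest peaks of the 4 lists overlapped at 38 of them (67.9%), against 90.3%. At many of these sites the lists therefore reached their maximum at different places of 1 merged region. Of the 10 largest differences, only the first had all 4 maxima within 500 bp.

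That first site was chr23:31413939-31444488 (30550 bp), which stood alone in size. Its maximum was 160.5 and 179.5 in the dnAP-1 libraries against 13.9 and 11.04 in the control libraries, a difference of 3.40 (log2) or 10.6-fold. In steps these were 236 and 264 against 11 and 8. Peaks covered 28086 and 29421 bp of it with dnAP-1 and 2383 and 2376 bp in the controls, and total signal differed by 4.59 (log2). Breadth and height thus both differed at this site.

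The chromosome 23 site lay 33.2 kb from an open chromatin region assigned to *eya4*, whose product is a transcriptional coactivator of the Eyes absent family. In the gene order of the assembly GRCz12tu *eya4* is followed by *tcf21*, the epicardial transcription factor gene whose BAC drives Cre-ERT2 in the *Epi/FB:dnAP-1* fish. Both other shared sites within 100 kb were unlike it. At chr23:31343994-31347940 the maxima were 59.2, 59.2, 39.1 and 35.9 (difference 0.28), and at chr23:31371408-31373607 they were 25.8, 25.2, 21.4 and 29.0 (-0.35). By the methods the controls would carry this BAC too, whereas their labels read CTRL and WT, so whether it differs between the groups is not known. The copy number of the locus was not measured in any group, and the part of the transgene in this site was not tested. Leaving out the stretch within 200 kb on either side of its midpoint left 929 higher sites.

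The next 9 had differences of 1.29 to 1.63. At chr6:54141664-54153992 (1.63) the maxima were 46.9 and 42.2 with dnAP-1 and 12.6 and 9.66 in the controls, with strongest peaks that did not all overlap. At chr11:269643-273725 (1.61), 11.6 kb from an open region of the collagen gene *col2a1b*, they were 51.7, 46.9, 13.9 and 11.04. At both, the 2 *Epi/FB:dnAP-1* values were at least 3 times either control value, on the deposited scale. Covered length went the other way over the stretch chr6:54125594-54153992, which holds the chromosome 6 site. Peaks covered 4.40 and 4.91 kb of it with dnAP-1 and 12.2 and 10.4 kb in the controls. At chr13:24338094-24346334 (1.58) the maxima were 63.9, 72.8, 20.2 and 15.2. Those at chr16:24810317-24817711 (1.45) were 29.2, 29.9, 10.1 and 6.90, and at chr11:40893322-40896198 (1.43) 61.2, 57.8, 18.9 and 15.2. At these 3 both replicates of a group lay far from the other group, although at the chromosome 13 site the strongest peaks did not all overlap. The control replicates were far apart at the following 3. There, chr8:2672966-2678807 (1.42) had 55.1, 61.2, 8.82 and 31.7 and again strongest peaks apart, and chr16:30455230-30462519 (1.36), 80.6 kb from an open region of the nuclear lamin gene *lmna*, had 57.8, 56.4, 35.3 and 8.28. At chr24:40810941-40814705 (1.31) the values were 59.2, 41.5, 11.3 and 20.7. The tenth, chr17:2720590-2726916 (1.29), had 44.2, 38.1, 15.1 and 11.04.

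Among the sites whose 4 maxima fell at 1 place, the 5 next in size, chosen after their values were seen, had differences of 1.15 to 1.28. At chr8:12465728-12469994 (1.28) the maxima were 40.8 and 30.6 with dnAP-1 and 10.1 and 12.4 in the controls. At chr5:59114790-59117539 (1.27) they were 79.6, 75.5, 27.7 and 22.1, with all summits within 16.5 bp. At chr1:14532120-14535705 (1.20) they were 77.5, 74.1, 20.2 and 31.7. These 3 sites were 2750 to 4267 bp wide. The gap between the lowest *Epi/FB:dnAP-1* value and the highest control value was 0.81, 1.20 and 0.73 (log2). It was 0.74 and 0.93 at the sites on chromosomes 7 and 3 that follow. At the chromosome 1 site the control replicates themselves lay apart, at -0.70 and 0.20 after centring. At chr7:65766986-65773568 (1.16) the values were 53.0, 57.8, 26.5 and 13.8. At chr3:19374768-19377714 (1.15), 3.49 kb from an open region of *s1pr5a*, a sphingosine-1-phosphate receptor gene, they were 66.6, 62.6, 27.7 and 17.9. Control replicate 2 was the lowest library at both of these. Total signal at the 5 sites differed by 0.36, 0.96, 1.20, -0.06 and 0.57 (log2), in the order given. At the chromosome 7 site peaks covered 3577 and 3670 bp with dnAP-1 and 4010 and 6583 bp in the controls.

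Genes could be named only through a supplementary list of the study, which assigns open chromatin regions of Epi/FBs that overlap known candidate regeneration enhancers to genes. Of its regions, 1999 were used, and their coordinates were taken as GRCz11, the build of the peak lists, although the list names none. Of these, 239 lay in a shared site and 15 in a higher site (6.28%), close to the 6.08% of all shared sites that were higher. In lower sites lay 47 (19.7%, against 15.6%). A share so close to the background is no result about the higher sites, and no test of the overlap was made on the shortened list.

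The 15 genes are given by what they are known to do, which is no test of a theme. Transcription and RNA control were represented by *sox4b*, *gadd45ba*, *tnrc6a* and *mir100-2*. At the site of *sox4b*, a SoxC transcription factor gene, the maxima were 66.0 and 59.2 with dnAP-1 and 36.5 and 22.1 in the controls (difference 0.76). It spanned 36358 bp, the widest of the higher sites. The *gadd45ba* site, of a growth arrest and stress response gene, had 40.8, 57.8, 26.5 and 22.1 (0.63). At *tnrc6a*, whose product is a GW182 protein of miRNA silencing, the values were 53.0, 44.2, 25.2 and 24.8 (0.57). The *mir100-2* site, of a miR-100 gene, had 56.4, 53.0, 27.7 and 26.2 (0.64), and its total signal differed by 0.74, the most of the 15. The controls overlapped *Epi/FB:dnAP-1* at none of them, which the rule itself requires.

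Enzymes and a kinase activator came next. The largest difference of the 15 was at *dio3a*, the gene of the deiodinase that inactivates thyroid hormone, where the maxima were 118.3 and 98.6 with dnAP-1 and 60.5 and 38.6 in the controls (0.78). Its total signal differed by -0.15, so at this 30309 bp site the summit was higher and the sum was not. At *tiparp*, a mono-ADP-ribosyltransferase gene induced by the aryl hydrocarbon receptor, the maxima were 83.6, 68.0, 34.02 and 40.0 (0.65), and total signal differed by 0.69. *flad1*, which encodes FAD synthase, had 45.6, 45.6, 20.2 and 22.1 (0.73). *cdk5r1b*, which encodes an activator of the kinase Cdk5, had the weakest of these sites with 25.2, 28.6, 13.9 and 12.4 (0.65), and its total signal differed by -0.32. The *nat14* site, of an N-acetyltransferase family gene, was among the strongest with 80.9, 87.7, 50.4 and 37.3 (0.58).

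Another 4 genes encode membrane proteins or act in vesicle transport, and 2 have no functional name. At *clec14a*, which in mammals encodes a C-type lectin of endothelial cells, the maxima were 59.2 and 55.8 with dnAP-1 and 30.2 and 24.8 in the controls (0.69). Replicates at this site were close in both groups. At *agfg1b*, of an ArfGAP protein with FG repeats, they were 57.1, 52.4, 32.8 and 19.3 (0.74), and at *copb1*, a subunit of the COPI vesicle coat, 44.9, 49.6, 22.7 and 27.6 (0.54). The *hvcn1* site, of a voltage-gated proton channel gene, had 38.1, 46.2, 16.4 and 24.8 (0.68). Genes *zgc:158291* and *zgc:158263*, which carry no functional name, had 66.0, 51.0, 34.02 and 27.6 (0.54), and 46.9, 39.4, 27.7 and 19.3 (0.52), the smallest differences of the 15 beside *copb1*. Total signal was higher in *Epi/FB:dnAP-1* on average at 12 of the 15 sites, with *dio3a*, *cdk5r1b* and *zgc:158263* (-0.18) the exceptions.

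**Figure D4:**
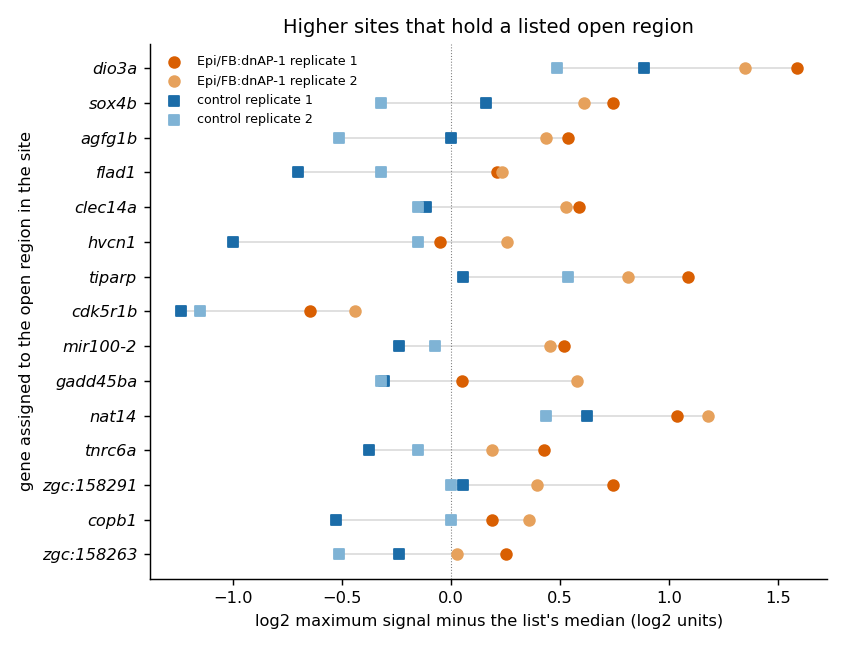
Centred log2 maximum (x axis, log2 units) of each library at the 15 higher sites that hold a listed open chromatin region, named by the gene assigned to it (y axis, ordered by difference). Circles stand for the *Epi/FB:dnAP-1* libraries and squares for the control libraries; the difference of means ranges from 0.78 at *dio3a* to 0.52 at *zgc:158263*.

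None of the genes typical of the cells or pathways under study was placed in a higher site. The 12 lists held 119 genes in all, with markers of Epi/FBs, endothelial cells (ECs), macrophages (MCs), lymphoid cells, neutrophils, erythrocytes, thrombocytes and cardiomyocytes, and members of AP-1, Hippo-Yap, Stat and the extracellular matrix. An open region of the list was assigned to 21 of them, 6 of these lay in a site and 4 in a shared site, so the lists speak to few genes. Since 6.08% of all shared sites were higher, the absence of higher sites among 4 is no result about these genes. Of these 4, *twist1b*, an Epi/FB transcription factor gene, lay in a lower site, where the maxima were 19.7 and 14.3 with dnAP-1 and 25.2 and 22.1 for the controls (-0.87). The groups overlapped at the other 3. At *aldh1a2*, of retinoic acid synthesis, the maxima were 18.4, 15.6, 15.1 and 16.6 (-0.28), at *nppc*, of C-type natriuretic peptide, 15.6, 15.6, 11.3 and 16.6 (-0.19), and at *irf8*, a macrophage transcription factor gene, 25.8, 20.4, 12.6 and 19.3 (0.18). Open regions of 2 listed genes, *klf2b* (ECs) and *hand2* (cardiomyocytes), lay outside higher sites but within 100 kb of one. An open region of *fli1*, a symbol not on the lists, lay between the 2 higher sites of chr18:48337669-48398101. The EC list holds *fli1a* and *fli1b*, and genes were matched by symbol. A listed gene that stands under another symbol would thus be missing from these counts, and whether *fli1* is such a gene was not looked up.

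Higher sites lay on all chromosomes, from 3.61% of the shared sites of chromosome 22 (16 of 443) to 9.07% of those of chromosome 24 (43 of 474), with 8.32% on chromosome 13 (52 of 625). The rule did not use position. Another higher site lay within 100 kb of 304 of the 930 (32.7%), and a higher site lay this close to 21.0% of the other shared sites and 18.4% of the lower ones. Higher sites also had more shared sites around them, 4.42 on average within 100 kb against 3.85 around the other sites. Of these neighbours 10.8% were themselves higher, against 6.76% of the neighbours of the other sites. Neighbouring sites share libraries and are not independent, so no p was computed for these shares. With 1 library left out, 447 to 1112 sites had such a neighbour, the most without control replicate 1. More sites were called then (1173 to 2229), and the share among the other shared sites was not computed. These counts thus do not show whether grouping differed.

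Linked at 100 kb, the 304 sites fell into 134 groups, of which 112 held 2 sites, 17 held 3 and 5 held 4 or more. The largest was chr13:49256875-49452957, a stretch of 196 kb with 9 higher sites among 14 shared ones. Peaks covered 67.6 and 88.2 kb of it with dnAP-1 and 86.7 and 86.3 kb in the controls. Of the 14, 12 had a difference above 0, with a median of 0.55. Median maxima over the stretch were 77.9 and 71.4 with dnAP-1 and 37.2 and 38.6 in the controls. Its strongest higher site, chr13:49339938-49344214, had 138.0, 123.8, 73.1 and 63.5, and the weakest, chr13:49256875-49263118, had 42.8, 29.9, 22.7 and 16.6. The 5 shared sites before the stretch had differences of -1.50 to -0.09, and the 5 after it were all above 0, at 0.06 to 0.45. An open region of *irf2bp2a*, a corepressor gene that in mammals partners IRF2, lies inside, and in GRCz12tu its neighbours are *egln1a*, a prolyl hydroxylase gene of oxygen sensing, and *tomm20a*, of the mitochondrial import pore.

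Further groups held fewer higher sites. At chr24:4188756-4401420 (213 kb) 7 of 15 shared sites were higher, with a median over the 15 of 0.41 and median maxima of 40.8, 39.4, 29.0 and 24.8. Lower signal occurred inside it too, down to -1.50 at chr24:4237968-4246264, where the maxima were 11.6, 8.16, 21.4 and 20.7. At chr24:5860149-6001226 (141 kb) 5 of 9 were higher, with a median of 0.51 and a largest difference of 1.08. It holds an open region of *pcolce2b*, an enhancer of procollagen C-proteinase, and its strongest higher site, chr24:5860149-5871503, had 102.7, 81.6, 46.6 and 40.0. The flanking sites of the 2 groups had medians of -0.11 and -0.16. Peaks covered 56.1, 89.4, 93.5 and 66.6 kb of the first and 44.7, 49.8, 42.1 and 40.4 kb of the other.

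A group without a site below 0 was chr16:12514405-12590903 (76.5 kb), which includes the *nat14* site. Here all 5 shared sites had differences of 0.47 to 0.70, and 4 of them were higher. Median maxima were 57.8 and 59.2 with dnAP-1 and 29.0 and 35.9 in the controls. In the GRCz12tu order *nat14* is near *il11a*, the gene of a cytokine of the IL-6 family, and *mfap5*, a microfibril gene. Their own position in GRCz11 was not looked up, for lack of an annotation. At chr17:37389168-37487022 (97.9 kb) 4 of 7 were higher, with a median of 0.54, around an open region of the LIM-domain gene *crip1*. Its flanking sites had a median of 0.17, the highest of these 5 groups. Peaks covered 30.4, 40.8, 25.8 and 24.3 kb of the chromosome 16 group and 51.8, 58.5, 51.9 and 40.7 kb of this one.

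**Figure D5:**
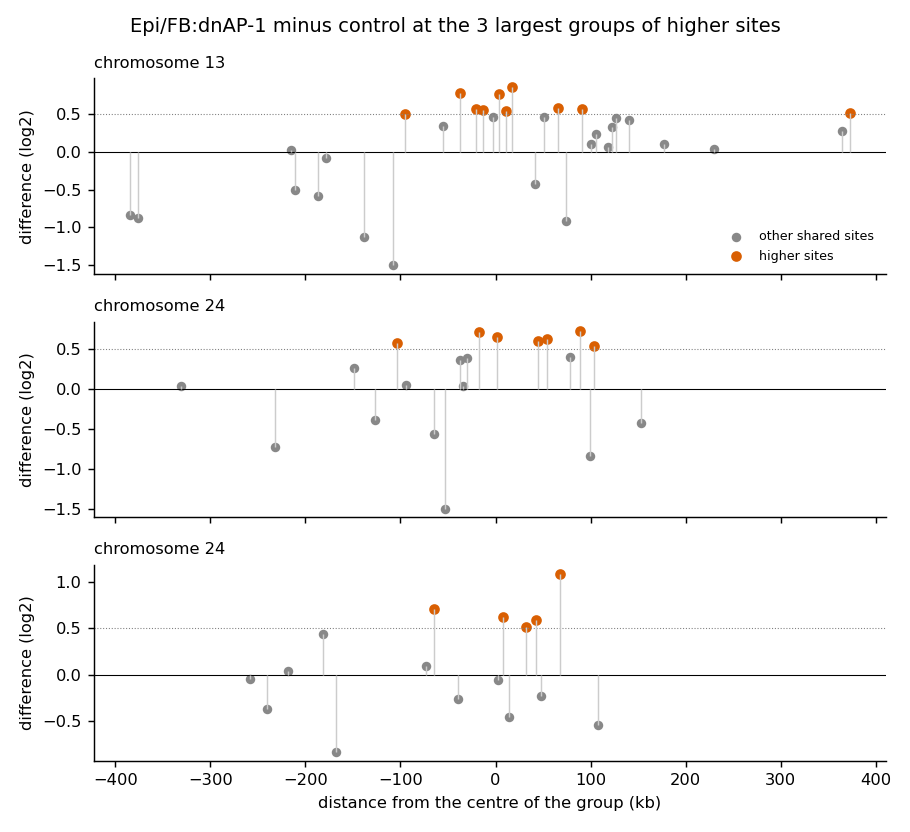
Difference between group means (y axis, log2, *Epi/FB:dnAP-1* minus control) of shared sites against their distance from the centre of the 3 largest groups of higher sites (x axis, kb), with higher sites in orange and other shared sites in grey. The dotted line marks the threshold of 0.5; 9 of 14, 7 of 15 and 5 of 9 shared sites inside the groups were higher, and sites of either sign stand beside them.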

How the data were processed

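H3K27ac CUT&Tag peak lists of nonCMs from the injury area at 7 dpa were used, 2 of *Epi/FB:dnAP-1* and 2 of control hearts, with groups and replicates from the sample labels. The authors trimmed reads (cutadapt 2.7), aligned them to GRCz11 (Bowtie2 2.2.5), filtered them (SAMtools 1.9, Picard) and called peaks per library. The methods name MACS2 and SEACR, and the format of the deposited lists is that of SEACR. The deposited values are signal: coverage multiplied by a ChIPseqSpikeFree factor per library, given as a sum and a maximum per peak. Read totals were not used here, so depth is described in steps, the smallest increment of a list, and 2 libraries per group limit the precision.

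From these lists, sites were merged and centred as described above with Python 3.11.15, numpy 2.4.6, pandas 2.3.3 and matplotlib 3.10.9. Coordinates are GRCz11, counted from 1. No test was made: the rule uses the contrast, and the exact permutation test (scipy 1.17.1) allows no p under 0.33. The counting was tested on simulated lists, with planted differences larger than most seen here and with less noise between replicates. Calls near the threshold were therefore not tested. The members, gene lists and alternatives were chosen with earlier results of these data known. Named sites are the 10 with the largest difference and 3 on either side of the threshold, beside those said to be chosen later. Named genes are those the study's list of open regions places in a higher site, and those of the gene lists. Other genes were named beyond this choice, and their open regions lay in no higher site. These regions lay near a higher site (*eya4*, *col2a1b*, *lmna*, *s1pr5a*) or inside a group of them (*irf2bp2a*, *pcolce2b*, *crip1*, *fli1*). Of 15 gene symbols, 14 were found in a RefSeq gene table of GRCz12tu, used only for names and neighbours. No GRCz11 sequence or annotation was used here, so sequences, motifs and distances to genes are not given. The alternatives were other measures, scalings, thresholds, merging, subsets of peaks or sites, a replicate block, and each library left out.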

Additional observations from a re-analysis of the deposited data

Results flagged for a closer look

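Some of the shared sites left out of the comparison also met the rule for higher sites, on the medians of the analysed chromosomes. Of 1770 sites called in all 4 lists on unplaced scaffolds and the mitochondrial genome, 74 were higher and 338 were lower. On chromosome 4 from 30 Mb on, 2 of 445 were higher and 315 were lower. In both places the share of higher sites was under the 6.08% of the analysed shared sites. The share of lower sites was over the 15.6% found there. These sites entered no other comparison.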

How the results depend on the processing

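With 1 library left out, which also admits sites called in only the other 3 lists, the number of higher sites was 1173 to 2229 and the number with a neighbour within 100 kb 447 to 1112, with the largest values without control replicate 1, against 930 and 304. The higher sites were 7.37% to 12.5% of the shared sites, against 6.08%. The number with a neighbour depends on how many sites were called, here and in the settings below. The median difference was then 0.63 to 0.67 (0.62 with all 4 libraries), the median difference of total signal 0.37 to 0.41 (0.40) and the median width 4237 to 4725 bp (5195 bp).

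In the same order (higher sites, neighbours, difference, total signal, width), a threshold of 1.0 gave 56, 2, 1.104, 0.59 and 5911 bp, deposited values without centring 5168, 3713, 0.69, 0.30 and 4784 bp, and steps 14055, 12937, 1.35, 1.03 and 4356 bp. The mean signal per covered base gave 1401 sites, 0.68, 0.22 and 3471 bp. The top 50% of each list gave 447, 106, 0.26 (total signal) and 6513 bp, and sites with 1 peak in every list 129 neighbours, 0.46 (total signal) and 3882.5 bp. Total signal as the measure gave a total difference of 0.64 and 4794 bp, quantile normalization 0.35, the running median 0.30, and joining peaks within 500 bp 5999 bp. Sites with all 4 maxima within 500 bp, an alternative chosen after seeing the data, gave 543 sites, 130 neighbours, 0.35 and 4477 bp. Fewer shared sites entered under the last (11408, of which 4.76% were higher), under the top 50% (8765, 5.10%) and under 1 peak in every list (11666, 5.61%). With all 15296 shared sites, 6.08% were higher by the main rule and 0.366% at a threshold of 1.0. The share was 33.8% with deposited values, 91.9% in steps and 9.16% on the mean signal per covered base. The threshold of 1.0 by definition keeps only sites with a difference of at least 1. Without centring, the median difference of all shared sites was itself above the 0 of equal groups, at 0.36 with deposited values and 1.31 in steps. For the other settings the cause was not tested. The remaining values, including those with chromosome 4 whole, without the chromosome 23 stretch and centred per chromosome, stayed within the replicate SD or, for counts, within 1.5 times. A merged site has 1 width for all lists, so for width the SD was that of the median covered length between replicates (390 bp).

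Under the replicate block, same-numbered libraries were compared, and 952 of the 15296 shared sites (6.22%) were higher. The 930 are among them by construction, since the block rule asks for less than the main rule. The replicate differences of the groups correlated at 0.04 across the shared sites. With 1 such difference per group, this cannot show whether same-numbered libraries shared a preparation, which the labels do not state. The control lists, with a median of 26 and 20 steps, limit the precision of weak sites.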
